A study of Mus musculus with 45 samples.

Results

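The Fbxw cluster genes described here were Fbxw13, Fbxw14, Fbxw15, Fbxw16, Fbxw18, Fbxw19, Fbxw20, Fbxw21, Fbxw22 and Fbxw24, chosen by name as 10 rows of a deposited expression table of 26214 genes. The table gave TPM, the share of transcripts scaled to gene length, in which each library summed to 1000000. Fully grown oocytes (FGOs) were profiled as pools of oocytes, with 3 control and 3 K36M libraries, and late two-cell embryos were profiled one embryo per library, with 7 control and 8 K36M oocyte-derived embryos. Control replicate 4 of the two-cell stage, which the study set aside, was left out of the fits, so 21 of 22 libraries were used. Control females carried the conditional allele H3f3b K36M-flox/+, and K36M females carried the same allele together with Gdf9-Cre, so both groups held the floxed allele and differed in the recombinase. The Gdf9 promoter drives Cre in growing oocytes, and the recombined allele gives histone H3.3 with methionine in place of lysine at residue K36, which lowers H3K36me2, a mark of broad chromatin domains. Oocytes were hybrid C57BL/6 / 129 and came from females aged 3 to 4 weeks, and embryos, labelled hybrid C57BL/6 / 129 X JF-1, were made by in vitro fertilization with JF-1 sperm and collected 31 to 32 h after fertilization. The stages therefore also differed in pooling, in the number of amplification cycles and in the presence of a paternal genome of another strain, and these cannot be told apart from stage.

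F-box proteins are the exchangeable substrate receptors of SCF ubiquitin ligases. Their F-box motif binds the adaptor Skp1, which sits on the cullin scaffold Cul1 together with the RING protein Rbx1, and the WD40 repeats of an Fbxw protein are the part that can hold a substrate to be ubiquitinated. Mice carry a tandem array of Fbxw genes on chromosome 9 that is known for expression in oocytes. In the mouse, transcripts stored during oocyte growth are largely degraded between meiotic maturation and the late two-cell stage, when the embryonic genome is activated.

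All 10 genes lay in one array at chr9:109139454-109790660 (RefSeq annotation of GRCm38.p6, the mm10 build), a stretch of 651207 bases that held 15 Fbxw genes, all on the minus strand. From the low to the high coordinate the members were Fbxw21 (chr9:109139454-109162022), Fbxw13 (chr9:109179227-109195975), Fbxw20 (chr9:109217432-109234754), Fbxw14 (chr9:109270789-109287729), Fbxw22 (chr9:109378400-109404294), Fbxw16 (chr9:109432318-109449140) and Fbxw19 (chr9:109478507-109495863). They were followed by Fbxw15 (chr9:109552602-109568262), Fbxw24 (chr9:109601116-109626059) and Fbxw18 (chr9:109676732-109702700). The remaining array genes were Fbxw28, Fbxw25, Fbxw26 and Fbxw27, which have rows in the table, and Fbxw23, whose level was not analysed here. Each member had 10 exons in its longest coding transcript and encoded 464 to 469 amino acids. Among genes with a row in the table, Plxnb1 and the noncoding Gm7628 were the nearest 2 below the array. Spink8 and the pseudogene 3000002C10Rik were the nearest 2 above it.

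The members were close copies of each other, which limits how well reads can be assigned to a single gene. Over 45 pairs of members, coding sequences were 81.2% to 92.7% identical, with a median of 84.4%. Fbxw14 was the exception with regard to the other array genes, since its coding sequence was 99.07% identical to that of Fbxw28. Windows of 53 bases were taken from annotated exons and searched in all assembled chromosomes on both strands. Those that occurred once in this search made up 29.8% of Fbxw14, against 85.9% to 97.8% of the other 9 members. Of the Fbxw14 windows, 68.1% were also found in Fbxw28. The levels of Fbxw14 and Fbxw28 are therefore uncertain as separate values, because the authors' handling of reads that match both copies is not given in the sources used here.

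The promoters were alike as well. They are shown because members with different levels, and with different estimates of the K36M difference, had similar upstream sequences. Whether the K36M difference varied between members was not tested. RefSeq promoter entries (250 bases before to 50 bases after the start, GRCm38.p6) were found for 8 members, Fbxw14, Fbxw15, Fbxw16, Fbxw18, Fbxw19, Fbxw20, Fbxw21 and Fbxw24. Within the 250 upstream bases, the parts of these 8 that aligned to each other, 205 to 249 bases a pair, were 84.3% to 96.4% identical over 28 pairs, with a median of 90.2%. The stretches below are written 5′ to 3′ on the minus strand, for Fbxw24, the most abundant member, Fbxw15 and Fbxw18, the members with the largest K36M differences in FGOs, Fbxw19, an abundant member with a small one, and Fbxw20. Capitals mark CAGCTG, a form of the E-box CANNTG, and the A/T-rich run TTTAAAA. They lie at chr9:109626071-109626170 (Fbxw24), chr9:109568274-109568373 (Fbxw15), chr9:109702701-109702791 (Fbxw18), chr9:109495890-109495989 (Fbxw19) and chr9:109234755-109234844 (Fbxw20).
Fbxw24: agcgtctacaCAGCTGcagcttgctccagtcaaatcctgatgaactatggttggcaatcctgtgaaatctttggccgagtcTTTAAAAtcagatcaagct
Fbxw15: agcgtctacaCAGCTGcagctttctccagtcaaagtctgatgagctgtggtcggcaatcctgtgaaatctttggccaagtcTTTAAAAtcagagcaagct
Fbxw18: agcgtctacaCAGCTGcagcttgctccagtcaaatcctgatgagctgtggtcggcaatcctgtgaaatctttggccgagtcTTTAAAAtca
Fbxw19: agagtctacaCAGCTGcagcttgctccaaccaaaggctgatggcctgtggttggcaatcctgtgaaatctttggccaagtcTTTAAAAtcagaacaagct
Fbxw20: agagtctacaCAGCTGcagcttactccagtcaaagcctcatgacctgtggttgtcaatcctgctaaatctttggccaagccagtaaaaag

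CAGCTG was present in 8 of 8 member promoters and, on either strand, in 16.1% of 27025 promoters of the same length. TTTAAAA was present in 7 of 8, all but Fbxw20, and in 8.65% of all promoters. Both were chosen after the member sequences had been seen, so their shares are a description. The broader CANNTG, which includes CAGCTG, was present in 8 of 8 and in 72.1% of all promoters. The other motifs were also searched on both strands. The motif TAATTG had no match in the 8 promoters and one in 8.15% of all promoters, the motif TAATTA none and 5.31%, and the TATA box TATAAA none and 14.2%. The motif GGATTA had a match in Fbxw21 alone and in 7.16% of all promoters. The 8 promoters held 0 to 4 CpG dinucleotides, against a median of 7 over all promoters, of which 38.3% held 4 or fewer.

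In control FGOs the members were abundant and their levels spanned a wide range. Fbxw24 was the most abundant, at 1926, 1898 and 2038 TPM in the 3 libraries (1954 ± 74 TPM, SD, n = 3), which was rank 30 of 26214 genes. Fbxw15 followed at 994, 1068 and 1151 TPM. The next were Fbxw19 at 882 ± 25 TPM and Fbxw18 at 854 ± 117 TPM, and the libraries of these neighbours overlapped. Fbxw16 stood at 614 ± 7.4 TPM, Fbxw21 at 525 ± 72 TPM and Fbxw20 at 472 ± 12 TPM (SD, n = 3), and Fbxw21 and Fbxw20 overlapped. The lowest levels were those of Fbxw14 at 392 ± 21 TPM, Fbxw13 at 325 ± 48 TPM and Fbxw22 at 244 ± 13 TPM, where Fbxw14 and Fbxw13 overlapped and Fbxw22, at rank 828, lay below both. The members summed to 7332 ± 368 TPM (SD, n = 3), 0.733% of all TPM in a control FGO library.

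The libraries carried the markers of their stage. The summed TPM of 10 oocyte genes (Gdf9, Bmp15, Zp1, Zp2, Zp3, Nlrp5, Ooep, Npm2, Padi6 and Mos) was 22112 to 22297 in control FGOs, 19616 to 20577 in K36M FGOs, 1223 to 2071 in control embryos and 1187 to 1920 in K36M oocyte-derived embryos. Summed markers of granulosa and cumulus cells reached at most 47.8 TPM in FGOs, and those of blood at most 0.38 TPM. In embryos they ranged from 0.664 to 109 TPM (granulosa and cumulus) and from 0 to 15.4 TPM (blood) in control, and from 0 to 115 TPM and from 0 to 59.5 TPM in K36M oocyte-derived embryos. Summed markers of stroma and vessel (4 genes) were 66.7 to 68.1 TPM in control and 55.1 to 62.6 TPM in K36M FGOs, without overlap, and overlapped between the groups of embryos. Zygotic genes of the Zscan4, Tcstv and Usp17l families and Zfp352 summed to 34.5 to 73.9 TPM in FGOs and to 270 to 2440 TPM in embryos. The 2 FGO groups did not overlap in the level of H3f3b, the targeted gene, which was 265 to 308 TPM in control and 377 to 418 TPM in K36M libraries, and the table does not separate the mutant from the normal transcript. Between 7655 and 9507 genes were listed at 0 in FGO libraries and between 8885 and 15320 in embryos. TPM holds no read counts, so the number of reads behind a single value is not known here. The study lists the total reads of each library, and these were higher in every FGO library than in every embryo library, so the stages also differed in depth.

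**Figure D1:**
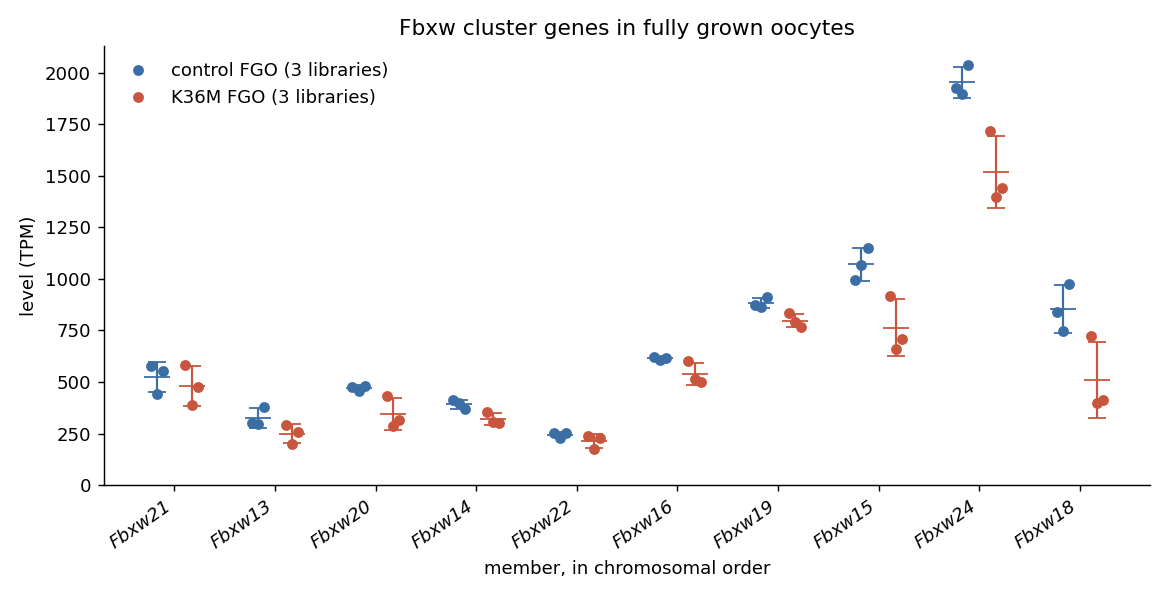
Level in TPM (y axis) of the 10 members, in chromosomal order (x axis), in 3 control and 3 K36M FGO libraries. Points are libraries, and the horizontal mark and bars give the mean ± SD. Fbxw24 was the highest member in every library, at 1898 to 2038 TPM in control and 1400 to 1717 TPM in K36M FGOs.

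The question put to FGOs was whether loss of H3K36me2 changed the oocyte transcriptome. For the array, all 10 members had a lower mean in K36M than in control FGOs, by 0.13 to 0.79 on the log2(TPM + 1) scale, and none passed the test across all genes. The members summed to 6688, 5121 and 5414 TPM in the 3 K36M libraries against 7264, 7003 and 7729 TPM in the 3 control libraries. The K36M mean of 5741 ± 833 TPM (SD, n = 3) was 78.3% of the control mean, and every K36M library was below every control library. Of 10 members, 0 had an adjusted p under 0.05 in limma with Benjamini-Hochberg adjustment over 13775 genes, where 1 gene passed (0.00726% of those tested). That gene, Cdo1, was looked up after the values had been seen. At an unadjusted p under 0.05, 8 members were lower and 0 higher, against 5.34% of all genes tested lower and 5.15% higher. The libraries of the groups did not overlap for 8 members, with K36M lower, against 8.17% of all genes tested. The median log2 difference was -0.33 over the members and 0.01 over all genes tested, and 47.9% of all genes had a difference below 0. The count of 8 at an unadjusted p became 5 without control replicate 3 or K36M replicate 2 or with no filter on low values, and 4 with no mean-variance trend.

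Fbxw18 showed the largest difference. Its level was 837, 746 and 978 TPM in the control libraries and 721, 398 and 411 TPM in the K36M libraries, so the groups did not overlap, and K36M replicate 1 lay near the control range. The log2 difference was -0.79 ± 0.21 (SE), with an adjusted p of 0.346 in limma.

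Fbxw15 was 994, 1068 and 1151 TPM in control and 920, 658 and 710 TPM in K36M FGOs, a log2 difference of -0.50 ± 0.12 (SE; adjusted p = 0.306 in limma). Fbxw20 was 475, 458 and 482 TPM in control and 431, 286 and 318 TPM in K36M FGOs, a log2 difference of -0.47 ± 0.14 (SE; adjusted p = 0.373 in limma). For both genes all 3 K36M libraries lay below all 3 control libraries, with K36M replicate 1 the closest to them.

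Fbxw24, at 1717, 1400 and 1441 TPM in K36M FGOs, had a log2 difference of -0.37 ± 0.08 (SE; adjusted p = 0.306 in limma). Fbxw13 was 289, 198 and 258 TPM in K36M FGOs against 299, 294 and 380 TPM in control FGOs, so that K36M replicate 1 came close to the lowest control libraries. Fbxw14 (-0.29), Fbxw16 (-0.19) and Fbxw19 (-0.14) had smaller log2 differences without overlap of the groups. The control libraries of Fbxw16 spanned 607 to 622 TPM, which left room for K36M libraries at 601, 517 and 501 TPM to stand apart.

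Fbxw21 and Fbxw22 overlapped between the groups. Fbxw21 was 577, 443 and 556 TPM in control and 583, 388 and 475 TPM in K36M FGOs, with a 95% interval of the log2 difference from -0.48 to 0.21, and without K36M replicate 2 its log2 difference was 0.012. Fbxw22 was 251, 229 and 251 TPM in control and 237, 177 and 230 TPM in K36M FGOs, with a 95% interval from -0.46 to 0.07.

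**Figure D2:**
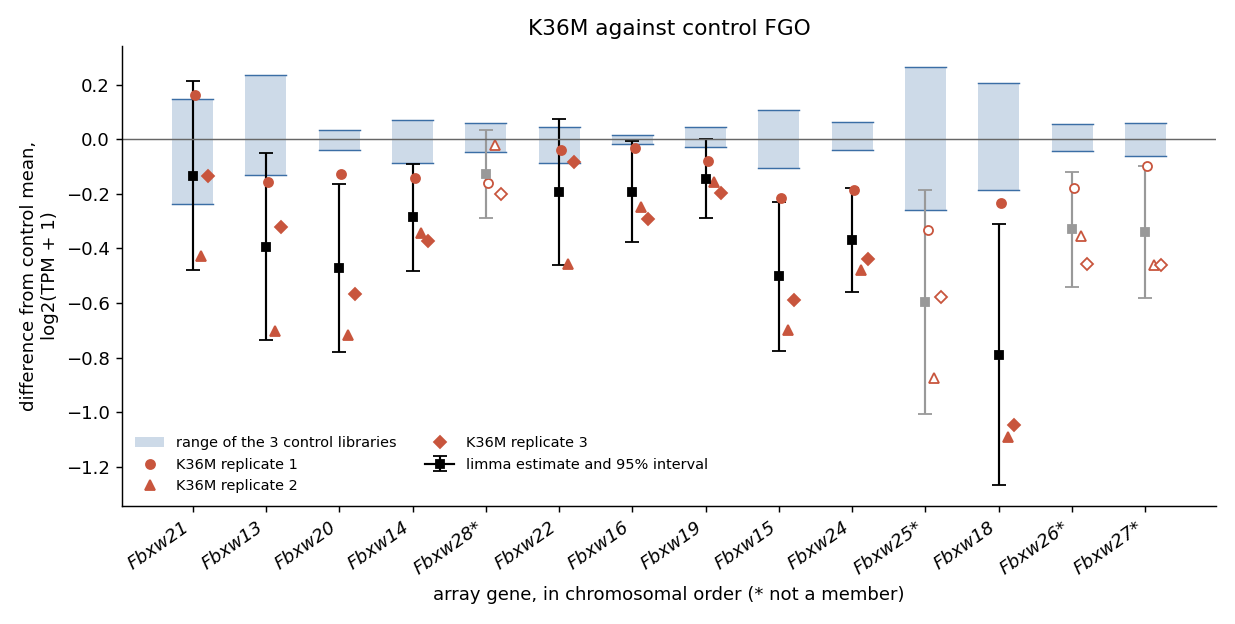
Difference from the mean of the 3 control FGO libraries on the log2(TPM + 1) scale (y axis) for 14 array genes in chromosomal order (x axis). Blue bands span the 3 control libraries, red symbols are the 3 K36M libraries, open where the gene is not a member, and squares with bars are limma estimates with 95% intervals. K36M replicate 1 lay closest to the control band for most genes, and Fbxw18 had the lowest estimate, -0.79.

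The 3 K36M FGO libraries did not contribute equally. Against the control mean, the median log2 difference over the members was -0.14 in K36M replicate 1, -0.47 in replicate 2 and -0.35 in replicate 3, while the median over all genes tested was -0.01, -0.01 and 0.06. Replicates 1 and 3 were below all control libraries in 8 members each, and replicate 2 in 10. Without K36M replicate 1, 4 members passed the adjusted threshold, Fbxw15, Fbxw18, Fbxw20 and Fbxw24, in a fit where 300 of 13799 genes passed and 0.79% of genes were called lower. The log2 difference of Fbxw18 was then -1.07 and that of Fbxw20 -0.64, each with an adjusted p of 0.0205 in limma. For these 4 members the library left out was the K36M library closest to the control mean. Its removal by itself enlarges their differences, so these calls are a description.

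The 4 array genes outside the set were also lower in K36M FGOs, with log2 differences from -0.60 for Fbxw25 to -0.13 for Fbxw28, and 0 of 4 passed the adjusted threshold. Fbxw28, the near-identical copy of Fbxw14, was the only one of these 4 whose libraries overlapped between groups. Without K36M replicate 1, Fbxw26 (adjusted p = 0.0478 in limma) and Fbxw27 (adjusted p = 0.0256 in limma) passed as lower. The flanking gene Plxnb1, which encodes a semaphorin receptor, had a log2 difference of 0.09 ± 0.16 (SE) and Gm7628 one of 0.34 ± 0.43 (SE), and both overlapped between groups. Spink8 and 3000002C10Rik did not enter this fit. Along the array the median log2 difference was -0.19 from Fbxw21 to Fbxw19 (8 genes) and -0.43 from Fbxw15 to Fbxw27 (6 genes), a division made at Fbxw23, whose level was not analysed here, after the values had been seen.

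Other oocyte transcripts also had lower means in K36M FGOs. Of 10 oocyte marker genes, 9 had a log2 difference below 0, with a median of -0.18, and 0 passed the adjusted threshold, while 6 were lower and 1 higher at an unadjusted p under 0.05. Over all genes tested, 5.34% were lower and 5.15% higher by that rule. None of the 10 was at 0 in either group, and the summed marker level did not overlap between groups. The summed stroma and vessel markers were lower in K36M FGOs as well. Whether these values have a part in the Fbxw differences was not tested.

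No partner of F-box proteins passed the adjusted threshold in FGOs. Skp1 had a log2 difference of -0.16 ± 0.06 (SE), Cul1 one of -0.20 ± 0.07 and Rbx1 one of -0.34 ± 0.16. Of 27 genes of the SCF core and its regulators, 0 passed the adjusted threshold in limma, 7 were lower and 2 higher at an unadjusted p under 0.05, and the median log2 difference was -0.01. Of 18 F-box genes outside the array, 0 passed the adjusted threshold, 0 were lower and 2 higher at an unadjusted p under 0.05, and the median log2 difference was 0.14. Beside both lists, 5.34% of all genes tested were lower and 5.15% higher at an unadjusted p under 0.05.

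Between FGOs and late two-cell embryos, all 10 members fell, in control and in K36M material. The summed level went from 7332 TPM in control FGOs to 517 ± 122 TPM in control embryos (SD, n = 7), 7.06% of the FGO level. In K36M oocyte-derived embryos it was 525 ± 173 TPM (SD, n = 8), 9.14% of the K36M FGO level. In limma at an adjusted p under 0.05, 10 of 10 members passed as lower in control, where 13.2% of 17358 genes tested were lower, and 10 of 10 in K36M, where 18.6% were. Every FGO value was above every embryo value for each of the 10 members, against 18.2% of genes without overlap and lower in control and 17.2% in K36M. The median log2 difference over the members was -4.61 in control and -4.79 in K36M, beside 0.00 and -0.18 over all genes tested. Because TPM is relative, a fall is a fall in share of the transcripts of a library.

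Among the 10 members, the estimated fall was smallest for Fbxw24. Fbxw24 had a log2 difference of -3.40 ± 0.33 (SE; adjusted p = 3.21e-08 in limma) in control and -2.75 ± 0.32 (SE; adjusted p = 5.62e-07 in limma) in K36M. Fbxw19 was next in both, with -3.42 ± 0.52 in control and -3.84 ± 0.51 in K36M (SE). The largest falls were those of Fbxw20 in control (-5.98 ± 1.12, SE) and Fbxw13 in K36M (-5.97 ± 1.14, SE). Differences between members in the size of the fall were not tested. As a share of the summed members, Fbxw24 made up 26.4% to 27.1% in control FGOs, 25.7% to 27.3% in K36M FGOs, 29.2% to 53.2% in control embryos and 33.7% to 61.1% in K36M oocyte-derived embryos.

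**Figure D3:**
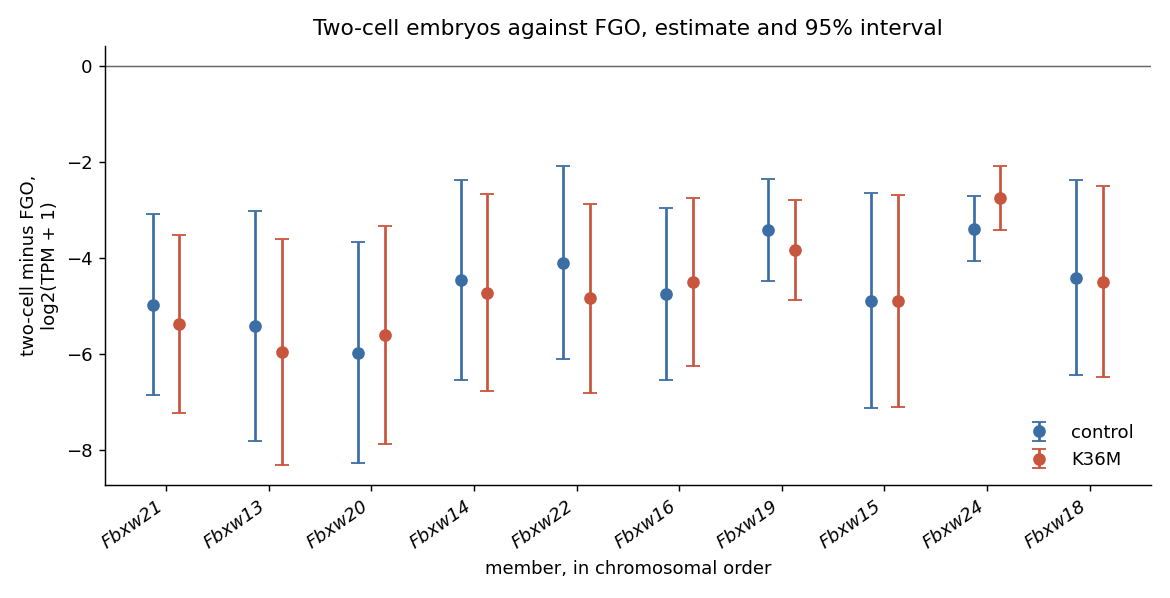
Difference between two-cell embryos and FGOs on the log2(TPM + 1) scale (y axis) for the 10 members in chromosomal order (x axis), with limma estimates and 95% intervals in control (blue) and K36M (red). All 20 intervals lay below 0, and Fbxw24 had the smallest fall in both genotypes, by 3.40 in control and 2.75 in K36M.

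The other array genes and the oocyte markers fell over the same interval. All 4 array genes outside the set passed as lower in both genotypes, with medians of -4.42 and -4.57. Of these, Fbxw26 had a log2 difference of -3.20 in control, a smaller fall than that of any member, and of -5.00 in K36M. All 10 oocyte markers passed as lower in both, with medians of -4.15 and -4.18. Genes of the SCF list were called in both directions: of 27 genes, at an adjusted p under 0.05 in limma, 9 were lower and 4 higher in control, and 11 were lower and 5 higher in K36M. Of all genes tested, 13.2% were lower and 13.4% higher in control, and 18.6% were lower and 10.8% higher in K36M.

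Skp1, the adaptor that binds the F-box, fell by 3.07 on the log2 scale in control (adjusted p = 4.60e-06 in limma) and by 3.24 in K36M (adjusted p = 1.45e-06 in limma). Cul1 (0.10 ± 0.30 in control, -0.04 ± 0.29 in K36M, SE) and Rbx1 (-0.58 ± 0.63 and -0.59 ± 0.61, SE) did not pass. Nae1, a subunit of the enzyme that activates NEDD8 for cullins, fell by 2.66 in control and by 3.28 in K36M. The ubiquitin-conjugating enzyme gene Ube2d3 fell in both genotypes, with log2 differences of -1.48 in control and -1.40 in K36M. Glmn, whose product binds Rbx1 and inhibits it, also fell in both, with log2 differences of -3.19 and -4.30. The genes that rose in both genotypes included Dcun1d3, a regulator of cullin neddylation (2.52 in control, 2.17 in K36M), Rnf7, a RING partner of cullins (2.42 and 1.88), and Cdc34, an SCF ubiquitin-conjugating enzyme (1.80 and 1.85).

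Among the 18 F-box genes outside the array, 4 were lower and 3 higher in control embryos, and 7 lower and 3 higher in K36M oocyte-derived embryos. The shares over all genes tested were 13.2% lower and 13.4% higher in control, and 18.6% and 10.8% in K36M. Fbxo15 rose the most, by 6.16 in control and by 7.20 in K36M on the log2 scale, with Fbxo11 (0.81 and 0.67) and Ccnf, which encodes cyclin F (1.34 and 1.14), also higher. Fbxw17, an Fbxw gene outside this array, passed as lower in both genotypes, from 12.6 TPM in control and 13.1 TPM in K36M FGOs, and was listed at 0 in 5 of 7 control and 8 of 8 K36M oocyte-derived embryos. Btrc, the receptor β-TrCP, fell by 3.61 in control and by 3.36 in K36M. Fbxo34 fell in both genotypes, with log2 differences of -0.97 and -1.12. Fbxo43, known as an inhibitor that keeps eggs arrested in meiosis, had a log2 difference of -1.55 in control (adjusted p = 0.0803 in limma) and of -3.84 in K36M, where it passed. In embryos it was 32.2 to 92.7 TPM in control and 0.479 to 27.9 TPM in K36M oocyte-derived embryos, without overlap, but neither that difference (-2.39 on the log2 scale) nor the interaction passed the adjusted threshold in limma.

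In embryos the question was whether oocytes with K36M histone passed a different transcript pool to the late two-cell stage. For the members no difference was detectable. Of 10 members, 0 passed in limma, where 0 of 17362 genes passed (0%), and 0 members had an unadjusted p under 0.05, against 7.71% of all genes. The groups overlapped for all 10, where 0.0922% of all genes did not overlap with K36M lower and 0.023% with K36M higher. The log2 differences ran from -0.94 for Fbxw22 to 0.28 for Fbxw24, with a median of -0.54, beside a median of -0.26 over all genes tested. The size of this overall shift depended on scaling. Under quantile normalization the medians were -0.24 over the members and -0.04 over all genes, and under median-of-ratios scaling -0.45 and -0.17. Control embryos listed 8885 to 14099 genes at 0 and K36M oocyte-derived embryos 11335 to 15320, and the part of this in the log2 differences was not tested.

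The precision differed strongly between members. Fbxw24 had a minimum of 121, a median of 190 and a maximum of 279 TPM in 7 control embryos, and 83.5, 218 and 457 TPM in 8 K36M oocyte-derived embryos. The 95% interval of its log2 difference ran from -0.35 to 0.90. Fbxw19 had 52.0, 86.9 and 115 TPM in control and 9.97, 71.2 and 148 TPM in K36M oocyte-derived embryos, with an interval from -1.53 to 0.40.

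For the remaining members the intervals were wider still. Fbxw18 had a minimum of 8.62, a median of 41.5 and a maximum of 167 TPM in control embryos, and 0.956, 28.5 and 110 TPM in K36M oocyte-derived embryos, with an interval from -2.55 to 0.82. Fbxw15 had 7.38, 26.0 and 118 TPM in control and 0, 43.1 and 187 TPM in K36M oocyte-derived embryos. Fbxw13 had 0, 3.49 and 87.3 TPM in control and 0, 4.57 and 17.6 TPM in K36M oocyte-derived embryos, with an interval from -3.04 to 1.17.

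Some members were listed at 0 in single embryos. Of 150 member values in 15 embryos, 9 were listed at 0, 3 of 70 in control and 6 of 80 in K36M oocyte-derived embryos, whereas no member was at 0 in any FGO library. Cops5, a subunit of the COP9 signalosome that cells use broadly, was also listed at 0 in 1 control and 2 K36M oocyte-derived embryos, so a listed 0 is not read here as absence of the transcript. Fbxw16, Fbxw18, Fbxw19 and Fbxw24 were above 0 in every embryo. K36M replicate 8 had 4 members at 0, more than any other embryo, although its summed level of 492 TPM was close to the group mean. Fbxw24 was the most abundant member in 14 of 15 embryos, and in control replicate 7 it was Fbxw18, at 167 TPM. The SD of log2(TPM + 1) between embryos of a group had a median over the members of 1.46 in control and 1.93 in K36M, beside 1.16 and 1.38 over all genes tested, whereas in FGOs it was 0.08 and 0.24, beside 0.18 and 0.22.

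**Figure D4:**
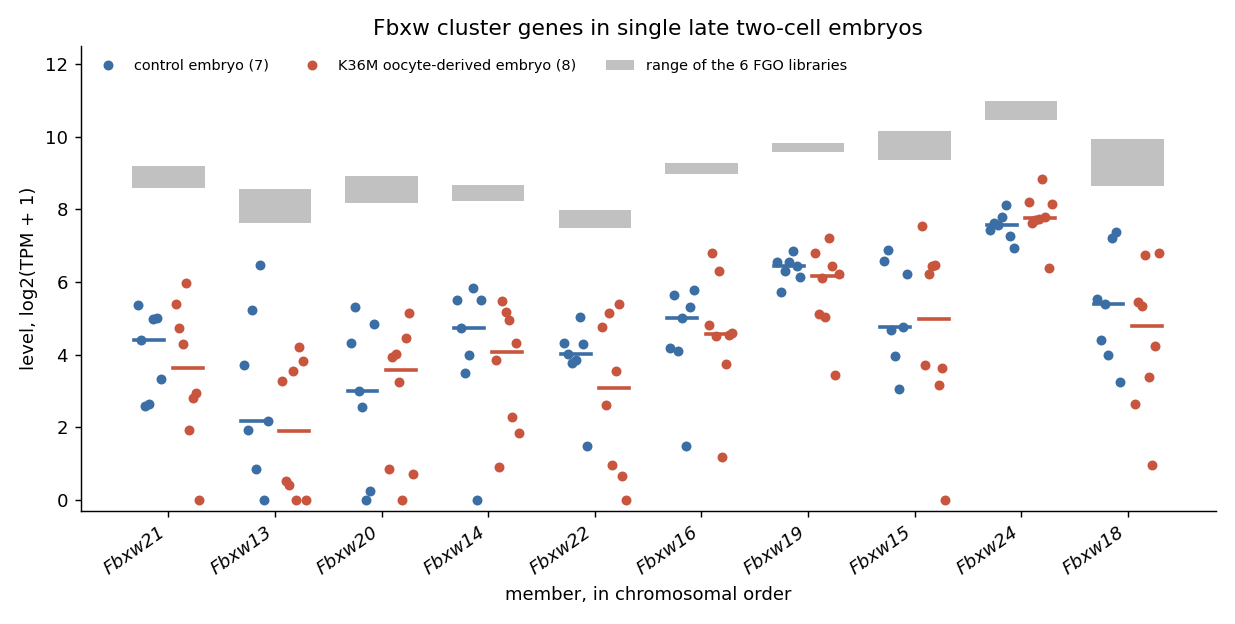
Level on the log2(TPM + 1) scale (y axis) of the 10 members in chromosomal order (x axis) in 7 control (blue) and 8 K36M oocyte-derived (red) two-cell embryos. Points are single embryos, horizontal marks are medians and grey boxes span the 6 FGO libraries, which lay above every embryo for all 10 members.

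The K36M difference was also compared between stages. In the interaction of genotype and stage, 0 of 10 members passed in limma and 0 had an unadjusted p under 0.05, where 0 of 17358 genes passed (0%) and 1.15% had an unadjusted p under 0.05. That fit gave each gene a single spread over FGOs and embryos. The median SD over the members was 0.08 (control) and 0.24 (K36M) in FGOs, but 1.46 and 1.93 in embryos. The p-values and intervals of the fit are therefore approximate. Fbxw24, the member with the smallest SE of the genotype difference in embryos, had an interaction of 0.64 with a 95% interval from -0.30 to 1.59. The interval included 0, and it also included differences of more than the 0.37 by which Fbxw24 was lower in K36M FGOs.

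Genes with a pattern like that of the members were sought among those with a mean of at least 5 TPM, by Pearson's r of log2(TPM + 1) with the log2 summed level of the members. Over 21 libraries, which fall into the 2 stages, the closest of 12329 genes were Nlrp5 (r = 0.98), Rdx (0.98), Nlrp14 (0.97), Gm46120 (0.97) and Dera (0.97). Nlrp5, a component of the subcortical maternal complex, went from 1805 TPM in control FGOs to 165 TPM in control embryos. Among the array genes outside the set, r was 0.94 for Fbxw28, 0.81 for Fbxw25, 0.76 for Fbxw26 and 0.73 for Fbxw27, and over the 15 embryos alone it was 0.24, 0.25, 0.15 and 0.02 in the same order. Over the 15 embryos alone, the closest of 12155 genes were Ceacam20 (r = 0.94), Golph3 (0.83), Sbf2 (0.83), Odf2 (0.82) and Wwc2 (0.82), none of which was among the 5 closest over 21 libraries. Ceacam20, an immunoglobulin-family adhesion gene, stood at 66.7 TPM in control FGOs and 54.1 TPM in control embryos. These values compare genes within the same libraries and were picked as the highest of many.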

How the data were processed

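RNA was measured with a stranded SMART-Seq kit in FGO pools and single two-cell embryos. The authors trimmed reads (Trim Galore!), aligned them to mm10 with Hisat2, removed rRNA reads and counted with featureCounts, and they deposited TPM values for 22 libraries. The annotation, the gene lengths and the treatment of reads matching several genes are not given in the sources used here. The unit depends on gene length, and copies that share reads can gain or lose from each other. TPM holds no read counts, so precision rests on the spread between libraries, and no count test was run.

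Values were taken as log2(TPM + 1) and tested with limma 3.58.1 (R 4.3.3; empirical Bayes with a mean-variance trend, two-sided, Benjamini-Hochberg, threshold 0.05) over genes with a mean of at least 1 TPM. For genes of low level this scale compresses differences. Each stage was fitted alone, and all 21 libraries together for stage and interaction. The fit of all 21 libraries gave each gene a single spread, so its p-values, SEs and intervals do not follow the unlike spreads of the stages. Nothing states that libraries come from separate females, so p-values measure the spread between these libraries, which may be technical in part. The comparison scripts were tested on simulated data. Alternatives were a pseudocount of 0.1, no filter or a minimum of 5 TPM, quantile and median-of-ratios scaling, no trend, weights per library, a block for the replicate number, control two-cell replicate 4 added, and each FGO library left out.

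The members and the gene lists (27 genes of the SCF core and its regulators, 18 other F-box genes in the table, cell markers) were chosen with earlier results of these data known. Beyond the 10 members, the text names Skp1, Cul1, Rbx1, up to 3 genes per direction of the F-box and SCF lists with the smallest adjusted p, the 5 genes of closest pattern and the 2 flanking genes per side. Markers of zygotic genes, stroma and vessel were computed too. Sequences came from RefSeq, GRCm38.p6, with Biopython 1.88 alignments, and protein sequences were not used. Bisulfite and chromatin samples of the series were not used here.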

Additional observations from a re-analysis of the deposited data

Results flagged for a closer look

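In 3 of 20 groups of embryos (10 members in control and in K36M oocyte-derived embryos), 1 embryo stood apart from the rest of its group on the log2(TPM + 1) scale by Dixon's test, where chance would mark about 1 of 20. All 3 were low values in control embryos. Fbxw14 was listed at 0 TPM in control replicate 7, against a group median of 25.7 TPM. Fbxw16 was 1.83 TPM in control replicate 6, against a median of 31.5 TPM. Fbxw22 was 1.79 TPM in control replicate 8, against a median of 15.2 TPM. The 3 values came from 3 different embryos. The FGO groups, with 3 libraries each, were not tested in this way.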

How the results depend on the processing

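All 10 members passed as lower between FGOs and embryos in both genotypes under every alternative run, and 0 passed between genotypes in embryos or in the interaction. Between genotypes in FGOs, 0 to 4 members passed when 1 FGO library was left out, the 4 being found without K36M replicate 1. The count lower at an unadjusted p, 8, was 5 to 9 when 1 library was left out, 6 with quantile normalization, median-of-ratios scaling or the replicate block, 5 with no filter and 4 with no mean-variance trend. Over all genes, the 1 call in FGOs became 0 with a pseudocount of 0.1, no filter, no trend or the replicate block, and 0 to 300 when 1 library was left out. In embryos the 0 calls became 5 with no trend and 1 with array weights. For stage, array weights gave 9730 calls in control and 8527 in K36M, and leaving out 1 FGO library gave 2844 to 2877 and 3421 to 3478. In the interaction, 0 became 13 with no filter, 1 with no trend, 3 with array weights and 0 to 3 when 1 library was left out. The causes were not tested. Between genotypes in FGOs, the log2 difference of Fbxw21 ran from -0.28 to 0.012 when 1 library was left out and changed sign without K36M replicate 2. In embryos, the log2 difference of Fbxw16 changed sign to -0.12 with array weights, -0.19 with the replicate block and -0.20 with control replicate 4 added, that of Fbxw20 to 0.0089 with a pseudocount of 0.1 and 0.37 with quantile normalization, and that of Fbxw21 to 0.063 with array weights, none of which passed. Median-of-ratios scaling put the summed members in control FGOs at 7836 TPM.

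Same-numbered libraries did not deviate together: the correlations of their deviations were 0.018 to 0.089 over 3 pairs in FGOs and -0.10 to 0.098 over 7 pairs in embryos, and the best match was the same number in 2 of 3 and 1 of 7. The replicate block changed no call of a member at the adjusted threshold, whereas the count at an unadjusted p in FGOs did change, as given above.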
